A study of Mus musculus with 24 samples.

Results

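The 10 genes described here are regulators of the choice between absorptive and secretory cells in the intestinal epithelium: the receptor Notch1, its ligands Dll1 and Dll4, the Notch target Hes1, the secretory transcription factors Atoh1, Gfi1, Spdef and Neurog3, and the SOX factors Sox9 and Sox4. They were chosen by gene symbol, and all 10 were found among the 56691 genes of the count table. Poly(A) RNA of the distal jejunum was sequenced in 24 mice, 3 in each of 8 groups set by sex, by genotype (wild type or Ptk6-/-) and by drinking water (regular water, or 100 mM succinate for 7 days). Ptk6 encodes an intracellular tyrosine kinase of epithelial cells, and Ptk6-/- is a germline knockout on a C57BL/6 background, so that every tissue of these animals lacked the gene. The mice were age-matched adults from different litters of a single colony, and the labels call the 3 samples of a group biological replicates. Succinate binds a receptor on tuft cells, the chemosensory cells of the epithelium, and starts a type 2 immune response that shifts the epithelium toward tuft and goblet cells.

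In the intestinal crypt a progenitor that shows Delta-like ligands on its surface activates Notch1 in its neighbours. The cleaved receptor joins the DNA-binding protein RBPJ and turns on Hes1, a repressor that keeps Atoh1 off, and such cells become absorptive enterocytes. Cells that escape the signal express Atoh1 and become secretory, after which Gfi1 and Spdef favour goblet and Paneth cells and Neurog3 sets up enteroendocrine cells. Sox9 acts in stem and Paneth cells, and Sox4 in early secretory progenitors, including those of tuft cells.

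The promoters of 4 members are shown as examples. Each is the stretch of 250 bases before a RefSeq transcription start on the coding strand, from GRCm38.p6, and RefSeq promoters were found for 8 of the 10 members, all but Hes1 and Sox9. Capitals mark matches on either strand to the RBPJ core TGGGAA, to the N box CACNAG bound by HES repressors, or to the E box CANNTG bound by the ATOH1 and NEUROG3 class of factors.
Spdef, chr17:27728952-27729201, minus strand: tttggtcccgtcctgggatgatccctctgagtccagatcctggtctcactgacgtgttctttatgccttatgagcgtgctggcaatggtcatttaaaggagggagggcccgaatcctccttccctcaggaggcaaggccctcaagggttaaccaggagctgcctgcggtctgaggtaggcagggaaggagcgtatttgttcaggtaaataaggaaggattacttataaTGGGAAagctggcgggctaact
Sox4, chr13:28953700-28953949, minus strand: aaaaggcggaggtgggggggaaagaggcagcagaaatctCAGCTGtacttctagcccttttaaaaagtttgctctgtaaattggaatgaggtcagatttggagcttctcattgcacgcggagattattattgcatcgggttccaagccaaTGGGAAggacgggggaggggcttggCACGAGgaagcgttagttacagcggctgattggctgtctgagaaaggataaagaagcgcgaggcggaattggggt
Dll1, chr17:15376933-15377182, minus strand: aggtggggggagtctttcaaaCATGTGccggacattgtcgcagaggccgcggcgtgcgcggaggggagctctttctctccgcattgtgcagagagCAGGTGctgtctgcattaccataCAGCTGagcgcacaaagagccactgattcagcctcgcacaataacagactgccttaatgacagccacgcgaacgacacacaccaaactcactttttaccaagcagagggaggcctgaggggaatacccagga
Dll4, chr2:119325534-119325783, plus strand: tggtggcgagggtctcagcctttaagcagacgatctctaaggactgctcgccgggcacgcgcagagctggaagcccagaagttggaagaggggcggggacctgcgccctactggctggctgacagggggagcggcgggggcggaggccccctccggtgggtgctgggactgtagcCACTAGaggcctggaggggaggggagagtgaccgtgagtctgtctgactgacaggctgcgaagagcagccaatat
The Spdef stretch held the RBPJ core from base -22 to -17 and neither of the other motifs. Sox4 held 1 match to each motif, with the RBPJ core from -100 to -95, the N box from -75 to -70 and the E box from -211 to -206, counted back from the start. The upstream start of Dll1 had 3 E boxes and Dll4 had 1 N box from -75 to -70. Among the 32851 promoters of the table, 21.6% held the RBPJ core, 36.7% the N box and 66.2% the E box in a stretch of this length, so that these are common letters, and a match is not evidence of binding. Of the 10 promoters of the members, 2 held the RBPJ core, 3 the N box and 6 the E box. Both with the RBPJ core are among those shown, and the Atoh1 promoter, not shown, held none of the motifs.

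In the build named by the submitters, GRCm39, Notch1 spans 26347915 to 26406675 of chromosome 2 on the minus strand and Dll4 119156265 to 119166443 of the same chromosome on the plus strand. Dll1 lies at 15587616 to 15597134 and Spdef at 27933326 to 27947929 of chromosome 17, both on the minus strand. Hes1 lies at 29883202 to 29886614 of chromosome 16 (plus), Atoh1 at 64706109 to 64708229 of chromosome 6 (plus), and Gfi1 at 107864523 to 107873671 of chromosome 5 (minus). Neurog3 lies at 61968869 to 61970542 of chromosome 10 (plus), Sox9 at 112673050 to 112678586 of chromosome 11 (plus), and Sox4 at 29132902 to 29137696 of chromosome 13 (minus). All are protein-coding genes. Neurog3 and Dll4 each overlap a gene on the opposite strand with counts of its own, Fam241b with 20 to 716 counts and Gm14207 with 42 to 332. The libraries kept strand but whether the counting did is not given in the sources used here, so that part of the reads of these members may belong to the partner.

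Levels per length, as FPKM, differed widely between members. Hes1 had the highest median over the 24 libraries, 22.3 FPKM (range 6.79 to 63.3), and lay above the next member in 24 of 24 libraries. Spdef followed at 8.68, Atoh1 at 7.48 and Dll1 at 5.88 FPKM. Spdef exceeded Atoh1 in 16 of 24 libraries, Atoh1 exceeded Dll1 in 20 and Dll1 exceeded Sox4 in 18. Sox4 (2.46) and Dll4 (2.41) were not separated, with Sox4 ahead in 14 of 24 libraries, and Dll4 and Sox9 (1.65) exchanged places as often. Gfi1 (1.47), Notch1 (0.842) and Neurog3 (0.307) closed the order, and Neurog3 had between 0 and 117 counts in a library. The receptor was thus listed at a lower FPKM than either of its ligands in the medians.

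**Figure D1:**
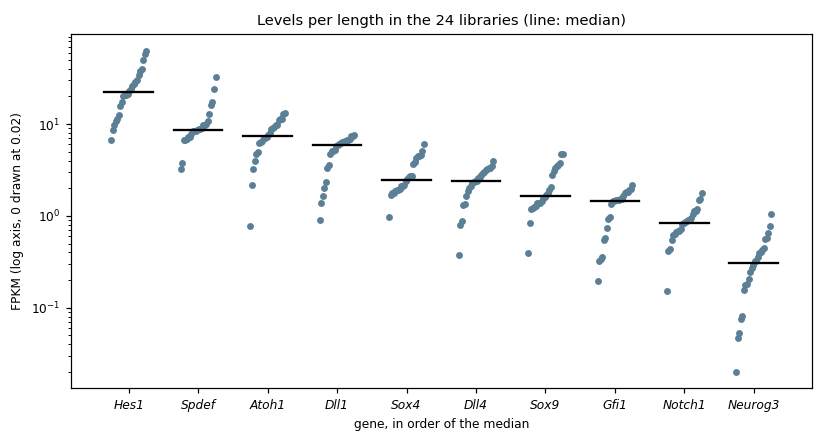
FPKM of the 10 members on a log axis, in order of the median, with 1 point for each of the 24 libraries and a line at the median. Hes1 stands above all other members at a median of 22.3 FPKM and Neurog3 below them at 0.307, while Sox4 and Dll4 overlap.

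The libraries held 8080321 to 52824743 counts. Ptk6 had 7 to 61 counts in the knockout libraries and 284 to 2405 in the wild type ones. In every library the summed level of 10 enterocyte markers was at least 18400 CPM (counts per 1000000, on TMM-scaled library sizes). In all, 3 libraries stood apart: replicate 1 of the wild type control males, in which 18S ribosomal RNA took 51.2% of the counts, replicate 1 of the Ptk6-/- succinate males, with the lowest total and 29.7% 18S RNA, and replicate 2 of the wild type succinate females. The last held 17400 CPM of 8 heart muscle genes, against 17.3 to 222 in the other 23 libraries. On unscaled totals it also held Y-linked transcripts at 66.1 CPM in an animal labelled female, against at most 0.905 in the other females. The libraries also differed in how levels depended on gene length: fitted over genes, the change in log2 CPM per doubling of length ran from -0.152 to 0.17.

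None of the 10 members passed an adjusted p of 0.05 in any of the 10 comparisons tested with edgeR. In the control males, where Ptk6-/- was compared with wild type, 4.23% of all genes passed, while 0 of 10 members did and 4 had an unadjusted p under 0.05, against 25.2% of all genes. DESeq2 and limma's voom with sample weights each called 2 members there, Spdef and Dll4, in fits that called 15.7% and 21.2% of all genes. In the other comparisons DESeq2 called no member, and voom called 3 in control females, 1 in wild type males after succinate and 2 over all 24 mice. Voom called 20.7%, 21.8% and 12.7% of all genes in these comparisons. In the control females 0.0158% of genes passed and 2 members had an unadjusted p under 0.05, against 11.1% of all genes. For succinate against control water the share of genes called was 0% in wild type males, in Ptk6-/- males and in wild type females, 0.0879% in Ptk6-/- females and 0.521% over all 24 mice, and the members with an unadjusted p under 0.05 numbered 0, 1, 2, 1 and 3 in that order, against 4.07%, 7.75%, 7.77%, 10.7% and 15.2% of all genes. With 3 mice a group the intervals were wide, so that the differences below are given with their errors and were not distinguished from the replicate spread after adjustment.

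**Figure D2:**
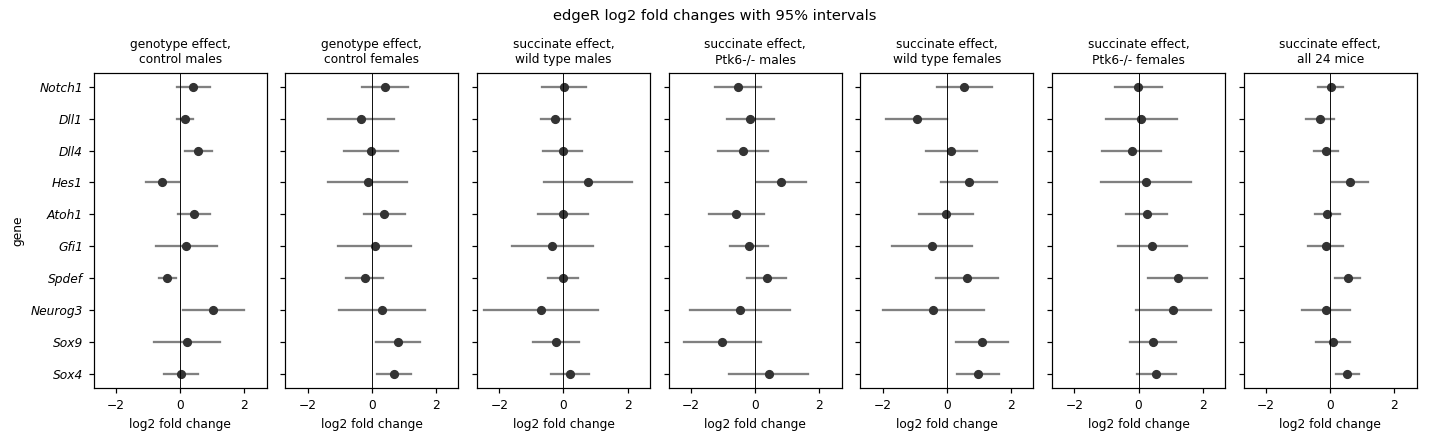
Log2 fold changes of the 10 members with 95% intervals in the 6 comparisons of 3 against 3 mice and in the succinate comparison over 24 mice; positive values are higher in Ptk6-/- or after succinate. The interval over 24 mice lies above 0 for Hes1, Spdef and Sox4, though none of them passed the adjusted threshold.

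Notch1 is the main Notch receptor of crypt cells. In control males it was at 17.2, 15.2 and 15.2 CPM in wild type and 28.8, 18.6 and 16.8 CPM in Ptk6-/-. In control females the values were 12, 13.8 and 12.6 CPM in wild type and 18.6, 21.3 and 10.2 CPM in Ptk6-/-. The groups overlapped in both sexes, and the log2 differences were 0.42 (SE 0.22, adjusted p = 0.282) in males and 0.42 (SE 0.31, adjusted p = 0.63) in females. Without replicate 3 of the Ptk6-/- control females, the one at 10.2 CPM, the female difference was 0.69 with an adjusted p of 0.0447 in edgeR, in a fit that called 15% of all genes. After succinate Notch1 was at 23.6, 14.4 and 10.8 CPM in wild type males and 9.6, 16.6 and 16.9 CPM in Ptk6-/- males, at log2 differences of 0.02 (SE 0.30) and -0.55 (SE 0.31). Succinate females were at 13.7, 29.8 and 12.4 CPM in wild type and 15.9, 17.1 and 17.6 CPM in Ptk6-/-, at 0.55 (SE 0.37) and -0.01 (SE 0.32). The value of 29.8 CPM came from the library with heart transcripts, and without it the wild type difference was 0.05. All 4 pairs of groups overlapped, and the log2 difference over all 24 mice was 0.01 (95% interval -0.37 to 0.39).

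Dll1 is the ligand of early secretory progenitors. In wild type females it was at 38.5, 29.0 and 29.8 CPM in controls and at 12.2, 9.93 and 27.8 CPM after succinate. All 3 succinate libraries lay below the controls, the last of them narrowly. The log2 difference was -0.94 (SE 0.41), with an adjusted p of 0.638 in edgeR, and groups failed to overlap for 13.1% of all genes in this comparison. Without the library that held heart transcripts the difference was -0.67. Without replicate 3, at 27.8 CPM, it was -1.51 with an adjusted p of 0.0363, and Sox9 and Sox4 also passed in that fit, which called 3.23% of all genes. In Ptk6-/- females Dll1 took 33.2, 31.8 and 9.82 CPM in controls and 36.4, 18.4 and 26.6 CPM after succinate, so that each group held a low library. The female interaction of genotype and succinate was 1.05 (95% interval -0.46 to 2.57).

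Among control males Dll1 was at 28.6, 33.5 and 34.0 CPM in wild type and 35.7, 33.5 and 38.9 CPM in Ptk6-/-. The groups were close, at a log2 difference of 0.15 (SE 0.11). Succinate libraries were at 30.2, 30.1 and 21.1 CPM in wild type males and 16.7, 44.6 and 34.3 CPM in Ptk6-/- males, at differences of -0.25 (SE 0.20) and -0.15 (SE 0.31). Over all 24 mice the median was 33.4 CPM in 12 controls and 27.2 CPM in 12 succinate libraries, and the difference was -0.31 (SE 0.21, adjusted p = 0.5).

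Dll4 is the second Delta-like ligand and is also a gene of blood vessel endothelium. In control males it was at 8.74, 11.7 and 14.4 CPM in wild type and 14.8, 18.9 and 18.3 CPM in Ptk6-/-. All 3 knockout libraries lay above all 3 wild type libraries, as was true in 1 direction or the other for 32.7% of all genes in this comparison. The log2 difference was 0.56 (SE 0.18, adjusted p = 0.106). DESeq2 gave 0.56 with an adjusted p of 0.0363, and leaving out 1 library at a time gave 0.43 to 0.71. The slope of level on length was -0.0565 to -0.00742 in these wild type libraries and 0.104 to 0.17 in the knockout ones. Over the 24 libraries Dll4 had an r of 0.731 with that slope, and the part of the slope in the difference was not tested. In control females the values were 12.3, 10.3 and 10.7 CPM against 11.6, 14.6 and 5.57 CPM, a difference of -0.03 (SE 0.36). The difference between the sexes in this effect was 0.59 (95% interval -0.34 to 1.51) and was not called. The summed level of 8 endothelial markers was 93.8 to 121 CPM in the wild type control males and 125 to 141 CPM in the Ptk6-/- ones, and their part in the Dll4 difference was not tested.

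After succinate Dll4 was at 13.5, 12.2 and 8.73 CPM in wild type males and 6.31, 15.3 and 17.1 CPM in Ptk6-/- males. Succinate females were at 7.28, 17.4 and 11.7 CPM in wild type and 12.1, 6.87 and 8.95 CPM in Ptk6-/-. Each of these groups overlapped its controls. The log2 differences were -0.03 (SE 0.26), -0.38 (SE 0.33), 0.14 (SE 0.34) and -0.21 (SE 0.40) in that order, and -0.12 (95% interval -0.49 to 0.25) over all 24 mice.

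Hes1, the transcriptional readout of the pathway, had the widest spread of the 9 members detected in every library, with an SD of log2 CPM of 0.824 against 0.713 for Gfi1, the next. It ran from 21.6 CPM in a wild type succinate male to 183 CPM in a wild type succinate female. In control males it was at 40.0, 61.3 and 52.1 CPM in wild type and 26.4, 31.5 and 48.0 CPM in Ptk6-/-. The groups overlapped through 1 library on each side, and the log2 difference was -0.55 (SE 0.23, adjusted p = 0.178). The length slopes of these groups did not overlap, and Hes1 had an r of -0.81 with the slope over the 24 libraries. The part of the slope in this difference was not tested. In wild type males succinate libraries were at 21.6, 165 and 76.5 CPM, and the first of these lay below every control. The difference was 0.77 (SE 0.60), and it was 1.19 with an adjusted p of 0.042 without that library, in a fit that called 14.6% of all genes. In Ptk6-/- males Hes1 was at 76.5, 60.1 and 42.7 CPM after succinate, a difference of 0.81 (SE 0.33, adjusted p = 0.6).

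In females the groups overlapped for Hes1 within both genotypes. Wild type controls were at 72.8, 100 and 60.6 CPM and wild type succinate libraries at 183, 110 and 77.7 CPM. Ptk6-/- controls were at 48.6, 27.9 and 134 CPM and Ptk6-/- succinate libraries at 67.9, 134 and 51.6 CPM. The succinate differences were 0.69 (SE 0.38) and 0.25 (SE 0.61). Across the 24 mice the difference was 0.62 (SE 0.27, adjusted p = 0.292), with a positive estimate in 4 of 4 combinations of sex and genotype. Of the alternatives run, only voom with sample weights put it below the threshold, at an adjusted p of 0.0495.

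**Figure D3:**
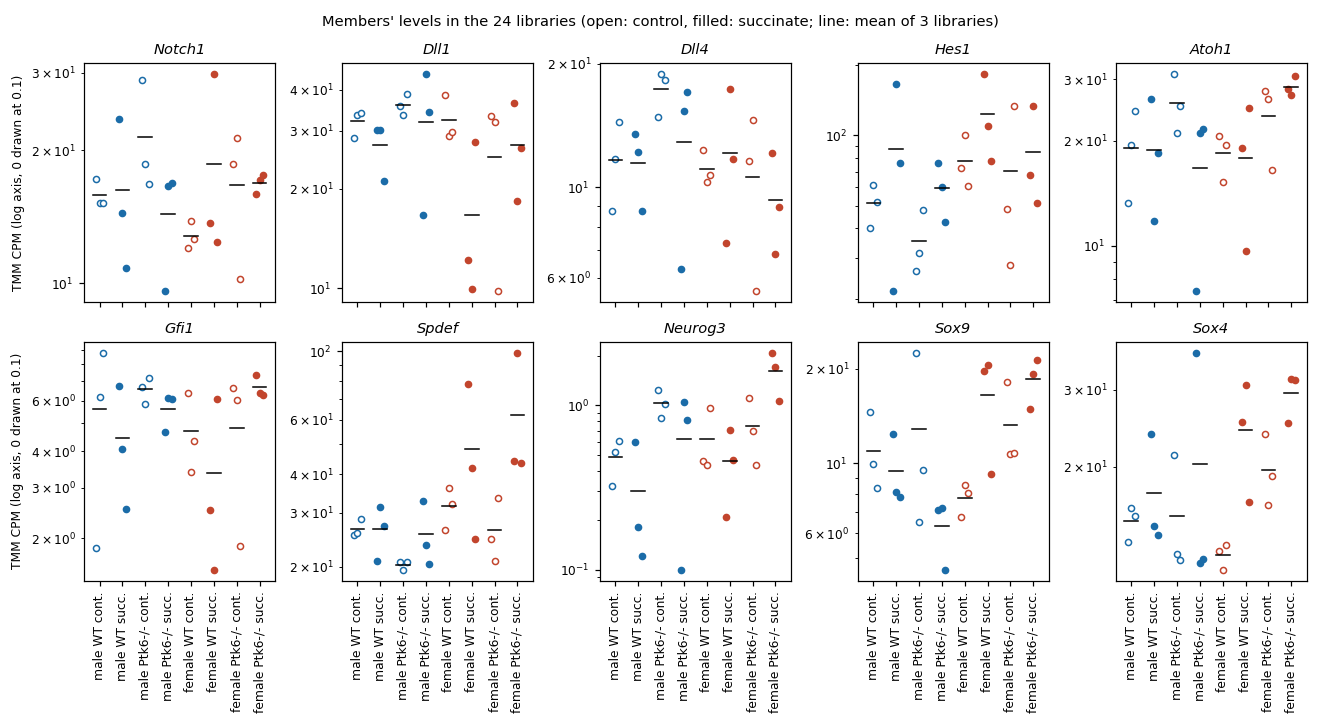
CPM of each member on a log axis in the 8 groups, with open points for control water, filled points for succinate, blue for males, red for females and a line at the mean of 3 libraries; a value of 0 is drawn at 0.1. Spdef reaches 99 CPM in a Ptk6-/- succinate female, and Sox4 in the females lies higher in the succinate than in the control libraries of each genotype.

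Atoh1 is the factor required for every secretory lineage except, in part, tuft cells. In controls its level was 13.3, 19.4 and 24.4 CPM in wild type males and 31.1, 21.0 and 25.1 CPM in Ptk6-/- males. Females showed 20.7, 15.2 and 19.4 CPM in wild type and 27.7, 26.4 and 16.5 CPM in Ptk6-/-. The groups overlapped in both sexes, at log2 differences of 0.42 (SE 0.22, adjusted p = 0.27) and 0.39 (SE 0.27, adjusted p = 0.609), and the interaction of genotype and sex was 0.03 (95% interval -0.78 to 0.83). After succinate Atoh1 was at 26.4, 11.8 and 18.4 CPM in wild type males and 7.41, 21.0 and 21.6 CPM in Ptk6-/- males. The value of 7.41 CPM, the lowest of all, came from the library with the lowest total. Succinate females were at 19.1, 9.67 and 24.9 CPM in wild type, where the low value came from the library with heart transcripts, and at 28.1, 27.0 and 30.7 CPM in Ptk6-/-. Over all 24 mice the succinate difference was -0.09 (95% interval -0.48 to 0.30).

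Gfi1, a repressor downstream of Atoh1 that favours goblet and Paneth over enteroendocrine cells, ran from 1.56 to 8.79 CPM. The lowest values were 1.56 CPM in the library with heart transcripts, 1.86 CPM in the library with 51.2% 18S RNA and 1.88 CPM in replicate 3 of the Ptk6-/- control females. Medians over 12 controls and 12 succinate libraries were 6.08 and 6.06 CPM. In control males Gfi1 was at 1.86, 6.15 and 8.79 CPM in wild type and 6.68, 5.85 and 7.17 CPM in Ptk6-/-, and in control females at 6.37, 3.39 and 4.33 CPM in wild type and 6.61, 6.01 and 1.88 CPM in Ptk6-/-. Succinate males were at 6.72, 4.09 and 2.53 CPM in wild type and 4.66, 6.12 and 6.08 CPM in Ptk6-/-, and succinate females at 2.5, 1.56 and 6.05 CPM in wild type and 7.37, 6.37 and 6.26 CPM in Ptk6-/-. The groups overlapped in all 6 comparisons of 3 against 3. None of these gave an unadjusted p under 0.05, and the log2 differences ran from -0.46 in wild type females after succinate to 0.43 in Ptk6-/- females after succinate, with standard errors of 0.54 and 0.46.

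Spdef drives goblet and Paneth cell maturation. In control males it was at 25.3, 25.7 and 28.6 CPM in wild type and 20.7, 19.6 and 20.8 CPM in Ptk6-/-. The 3 knockout libraries lay close together and below every wild type library, in a comparison where groups failed to overlap for 32.7% of all genes. The log2 difference was -0.40 (SE 0.11), and its adjusted p of 0.0755 was the smallest of any member in any comparison. DESeq2 gave -0.39 with an adjusted p of 0.0251 and voom -0.39 with 0.0203. With a correction for gene length the difference was -0.23, and on log2(FPKM + 0.1), where 18S RNA stays in the scaling, it was 0.04. The slope of level on length was -0.0565 to -0.00742 in these wild type libraries and 0.104 to 0.17 in the knockout ones, without overlap. Females showed 26.4, 36.1 and 31.9 CPM in wild type controls and 24.6, 20.9 and 33.5 CPM in Ptk6-/- controls, a difference of -0.23 (SE 0.25) with overlapping groups.

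After succinate Spdef was at 78.4, 41.9 and 24.6 CPM in wild type females. In Ptk6-/- females it was at 44.1, 99 and 43.4 CPM. All 3 Ptk6-/- succinate libraries lay above their controls, which 21.2% of all genes did in 1 direction or the other, whereas 1 wild type succinate library lay below its controls. The log2 differences were 1.22 (SE 0.40, adjusted p = 0.404) in Ptk6-/- females and 0.64 (SE 0.42, adjusted p = 0.74) in wild type females, and the interaction was 0.60 (95% interval -0.70 to 1.89). Without the library at 99 CPM the Ptk6-/- difference was 0.71. In males the succinate libraries were at 20.9, 31.3 and 27.2 CPM in wild type and 32.6, 23.6 and 20.4 CPM in Ptk6-/-, with differences of -0.02 (SE 0.21) and 0.37 (SE 0.26). Across the 24 mice the difference was 0.54 (SE 0.19, adjusted p = 0.207), positive in 3 of 4 combinations of sex and genotype, and 0.56 without the libraries that stood apart.

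Neurog3, which starts the enteroendocrine programme, was the rarest member. In control males it was at 0.324, 0.521 and 0.608 CPM in wild type and 1.25, 0.836 and 1.02 CPM in Ptk6-/-. The groups did not overlap, as was true for 32.7% of all genes in this comparison, and the log2 difference was 1.04 (SE 0.41, adjusted p = 0.166). The length slopes of these groups did not overlap either, and Neurog3 had an r of 0.527 with the slope over the 24 libraries. The part of the slope in this Neurog3 difference was not tested. Control females overlapped at 0.46, 0.432 and 0.972 CPM in wild type and 1.11, 0.701 and 0.433 CPM in Ptk6-/-, a difference of 0.31 (SE 0.58). After succinate the Ptk6-/- females were at 2.10, 1.72 and 1.07 CPM, a difference of 1.08 (SE 0.51, adjusted p = 0.488). The wild type females were at 0.208, 0.714 and 0.464 CPM, a difference of -0.42 (SE 0.68), and the female interaction was 1.54 (95% interval -0.27 to 3.34, adjusted p = 0.769). In the succinate males the values were 0.598, 0.182 and 0.121 CPM in wild type and 0, 1.05 and 0.821 CPM in Ptk6-/-. The 0 came from the library of 8080321 counts, in which 3 counts would already have been a CPM of 0.371 on the unscaled total. On the TMM-scaled total used for the other values, with a factor of 0.4514, 3 counts would be a still higher CPM. The absence of Neurog3 there was thus not shown at this depth.

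Sox9 and Sox4 gave the lowest unadjusted p-values among the members in both comparisons with the wild type control females. Sox4 was at 12.8, 11.6 and 13.2 CPM in wild type controls, 25.3, 30.8 and 16.6 CPM in wild type succinate, 23.7, 16.3 and 19.0 CPM in Ptk6-/- controls and 25.2, 31.8 and 31.5 CPM in Ptk6-/- succinate libraries. The wild type controls were the lowest group, and all 3 other groups lay above them without overlap. Over all genes, groups failed to overlap for 13.1% for succinate in wild type females and 18.9% for genotype in control females. For succinate in Ptk6-/- females, where Sox4 did not overlap either, it was 21.2%. The log2 difference was 0.97 (SE 0.29, adjusted p = 0.585) for succinate in wild type females, 0.56 (SE 0.26, adjusted p = 0.488) for succinate in Ptk6-/- females and 0.69 (SE 0.23, adjusted p = 0.38) for genotype in controls. Without the library that held heart transcripts the wild type difference was 0.78.

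Sox9 showed 6.74, 8.55 and 8.02 CPM in wild type control females and 19.6, 20.5 and 9.22 CPM after succinate. In Ptk6-/- females it was at 18.2, 10.7 and 10.8 CPM in controls and 14.9, 19.3 and 21.3 CPM after succinate. Here too the wild type controls were below all other female libraries. The log2 differences were 1.10 (SE 0.36, adjusted p = 0.617) for succinate in wild type, 0.46 (SE 0.31, adjusted p = 0.62) for succinate in Ptk6-/- and 0.81 (SE 0.29, adjusted p = 0.397) for genotype in controls. In the control females the groups failed to overlap for 18.9% of all genes. Both genotype comparisons in females and the wild type succinate comparison share the same 3 wild type controls, so that their differences are not independent.

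In males the groups overlapped for both genes between genotypes in controls and between control and succinate within each genotype. Sox4 was at 13.4, 16.1 and 15.4 CPM in wild type controls, 21.3, 12.6 and 12.2 CPM in Ptk6-/- controls, 23.8, 14.6 and 13.9 CPM in wild type succinate and 36.5, 12 and 12.3 CPM in Ptk6-/- succinate libraries. The value of 36.5 CPM, the highest of all, came from the library with the lowest total. Sox9 was at 14.6, 9.92 and 8.36 CPM in wild type controls, 22.5, 6.53 and 9.52 CPM in Ptk6-/- controls, 12.4, 8.09 and 7.81 CPM in wild type succinate and 7.13, 7.20 and 4.59 CPM in Ptk6-/- succinate libraries. In Ptk6-/- males the succinate difference of Sox9 was -1.02 (SE 0.51, adjusted p = 0.6), and the groups overlapped for all 10 members there and in wild type males. Over all genes the groups failed to overlap for 23.8% in Ptk6-/- males and 9.18% in wild type males. The interaction of genotype and sex in controls was -0.67 (95% interval -1.40 to 0.06) for Sox4 and -0.60 (-1.88 to 0.69) for Sox9. Across the 24 mice Sox4 had a succinate difference of 0.53 (SE 0.18, adjusted p = 0.183), positive in 4 of 4 combinations, and 0.32 (adjusted p = 0.433) without the libraries that stood apart.

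Most of the differences in the males and in the wild type females kept their direction without the library that stood apart. In control males, without the library of 51.2% 18S RNA, the log2 difference was 0.90 for Neurog3, -0.67 for Hes1, -0.39 for Spdef, 0.43 for Dll4, 0.53 for Notch1 and Sox9 and 0.12 for Dll1, while that of Gfi1 turned from 0.20 to -0.16 and that of Sox4 was 0.00. In wild type males, without the same library, Hes1 differed by 0.64 after succinate, Gfi1 by -0.71 and Neurog3 by -0.85, and Sox9 turned from -0.23 to 0.07. In Ptk6-/- males, without the library of the lowest total, the succinate difference was 0.53 for Hes1 and -1.17 for Sox9, while that of Sox4 turned from 0.42 to -0.38, that of Dll1 from -0.15 to 0.11 and that of Spdef was 0.09 in place of 0.37. In wild type females, without the library with heart transcripts, it was 0.92 for Sox9, 0.78 for Hes1 and 0.75 for Spdef, while Dll4 turned from 0.14 to -0.20 and Atoh1 from -0.02 to 0.28. Over all 24 mice it was 0.54 for Hes1 and -0.16 for Dll1 without these 3 libraries, and the small differences of Atoh1 (-0.09) and Notch1 (0.01) turned to 0.04 and -0.04. No member passed the adjusted threshold of edgeR in these fits.

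The 3 interaction comparisons called 0% of all genes each and 0 of 10 members with edgeR, and no member had an unadjusted p under 0.05 in them. DESeq2 called 18, 61 and 61 genes in them and no member. The lowest adjusted p of a member was 0.999 for genotype and sex, 0.993 for genotype and succinate in males and 0.769 in females. The estimates of the 10 members ran from -0.67 for Sox4 to 0.72 for Neurog3 for genotype and sex, from -0.78 for Sox9 to 0.38 for Spdef for genotype and succinate in males, and from -0.61 for Sox9 to 1.54 for Neurog3 in females. These intervals were wide, reaching 3.34 on the log2 scale for Neurog3 in females, so that the data do not show equal responses either.

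The other genes of the pathway were read from a list of 36 Notch components. In Ptk6-/- control males 4 of 35 tested were called higher and 0 lower by edgeR, against 4.23% of all genes called in either direction, and 10 had an unadjusted p under 0.05, against 25.2% of all genes, with a median log2 difference of 0.15 against 0.02 over all genes. They were Spen, Numb, Maml1 and Ep300, named after their values were seen. Spen, a corepressor that works with RBPJ, differed by 1.46 (SE 0.22, adjusted p = 0.0275), and Numb, which inhibits Notch, by 0.72 (SE 0.12, adjusted p = 0.031). Maml1 and Ep300, coactivators of the cleaved receptor, differed by 0.64 (SE 0.12, adjusted p = 0.0362) and 0.83 (SE 0.18, adjusted p = 0.0434). The 4 thus include coactivators and an inhibitor. With the gene length correction 1 of 35 was called, with the replicate block 0, and without either replicate 2 or replicate 3 of either group 0, while without the library of 51.2% 18S RNA 4 were called. DESeq2 called 6 higher and 2 lower, beside 15.7% of all genes, and voom 8 higher and 3 lower, beside 21.2%. Calls in a single direction were thus not found with these tools. In control females edgeR called 0 of 35, DESeq2 1 higher and voom 5 higher and 3 lower. Voom called 20.7% of all genes there. Spen was at 17.1, 12.1 and 17.1 CPM in wild type and 54.3, 83.5 and 30.7 CPM in Ptk6-/-. Ep300 was at 28.4, 19.9 and 26 CPM against 51.1, 79.3 and 28.8 CPM, while Numb and Maml1 overlapped. Groups failed to overlap for 18.9% of all genes there, and the interaction of genotype and sex called 0 of 35. Under succinate edgeR called no Notch component in any comparison. Over all 24 mice 6 of 36 had an unadjusted p under 0.05, against 15.2% of all genes. DESeq2 called 1 higher over all 24 mice and voom 2 higher and 6 lower, where voom called 12.7% of all genes. In wild type males voom called 5 higher and 3 lower, beside 21.8% of all genes. There edgeR without replicate 1 of the succinate group called 3 higher and 3 lower, beside 14.6% of all genes. Over all 24 mice the list had a median log2 difference of -0.03 against 0.00 over all genes.

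A list of 24 further transcription factors of the secretory lineages gave 1 gene called higher in Ptk6-/- control males, near the 4.23% of all genes called there, the membrane-bound factor Creb3l1 at 0.60 (SE 0.11, adjusted p = 0.0355, called in 7 of 15 alternatives), and 1 called higher after succinate over all 24 mice, Gfi1b. Creb3l1 was named after its values were seen. In control females it was at 16.9, 17.3 and 22.3 CPM in wild type and 40.2, 36.3 and 70.7 CPM in Ptk6-/-. These groups did not overlap, as was true for 18.9% of all genes there. Of 23 listed factors tested in control females, edgeR called 0, DESeq2 2 higher and voom 5 higher. Voom called 20.7% of all genes there. Gfi1b, a relative of Gfi1 that marks tuft cells in the epithelium, was at 0.678, 0.497 and 0.155 CPM in wild type control females and 3.19, 4.25 and 1.24 CPM after succinate. In Ptk6-/- females it was at 0.472, 0.255 and 0.520 CPM in controls and 1.40, 4.30 and 3.82 CPM after succinate. In wild type males it was at 0.324, 0.191 and 0.223 CPM in controls and 0.580, 0.708 and 0.699 CPM after succinate. These 3 pairs of groups did not overlap, as was true for 13.1%, 21.2% and 9.18% of all genes in the same order. In Ptk6-/- males the controls were at 0.275, 0 and 0.305 CPM and the succinate libraries at 0, 0.541 and 0.377 CPM, which overlapped. Over all 24 mice the log2 difference was 2.09 (SE 0.44, adjusted p = 0.0249). It was called in 26 of 33 alternatives and was 2.14 without the libraries that stood apart. With the replicate block the adjusted p was 0.0522, and it was between 0.0523 and 0.0671 without any 1 of replicates 1 and 2 of the Ptk6-/- control females, replicates 1, 2 and 3 of the wild type control females or replicate 1 of the wild type succinate females. Gfi1 itself, with 0 members called, differed by -0.14 (SE 0.26) in the same comparison.

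Levels of some pairs of members varied together over the 24 libraries. How common such r is among pairs of other genes was not computed, so that it is not shown to be particular to the members. Of the 45 pairs, the highest Pearson r of log2 CPM was 0.745 for Dll1 with Gfi1 (Spearman rho 0.683), followed by 0.74 for Atoh1 with Neurog3 (rho 0.796), 0.725 for Hes1 with Spdef (rho 0.771) and 0.685 for Sox9 with Sox4 (rho 0.656). Their permutation p-values, adjusted over 45 pairs, were 0.0036, 0.0025, 0.0022 and 0.0036 for r and 0.004, 3e-04, 3e-04 and 0.0047 for rho. Leaving out the 2 libraries farthest from the median of the first gene gave r of 0.538, 0.721, 0.652 and 0.657. Without the 3 libraries that stood apart they were 0.787, 0.713, 0.713 and 0.891. Within groups, as deviations from the group means, they were 0.747, 0.636, 0.723 and 0.615, so that this covariation was also present between mice of the same group. The lowest r was -0.609 for Dll1 with Hes1 (rho -0.565, adjusted permutation p = 0.0093 and 0.017) and -0.601 for Dll4 with Spdef (rho -0.663, adjusted permutation p = 0.0093 and 0.0044), and these were -0.55 and -0.701 without the 2 farthest libraries and -0.608 and -0.746 without those that stood apart.

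**Figure D4:**
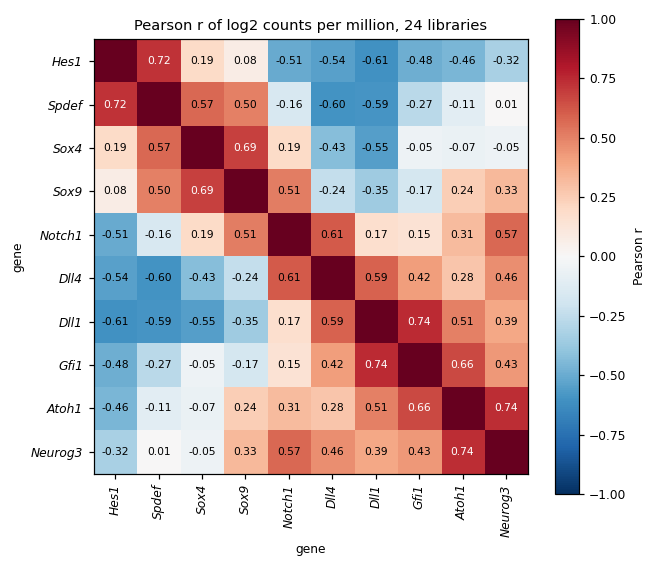
Pearson r between the log2 CPM of each pair of members over 24 libraries, red for positive and blue for negative. Hes1 and Spdef form a pair at 0.725 and lie opposite to Dll1 and Dll4, and Sox9 and Sox4 pair at 0.685.

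Levels of most members also varied with the trend of each library with gene length. Hes1 had an r of -0.81 with that slope (rho -0.817) and Spdef -0.635 (rho -0.716), whereas Dll4 had 0.731 (rho 0.719), Notch1 0.689 (rho 0.69), Atoh1 0.579 (rho 0.639) and Dll1 0.512 (rho 0.533). Neurog3 had 0.527 (rho 0.53). Permutation p-values adjusted over the 10 members were at most 0.013 for these 7. The value for Hes1, 1e-04 after adjustment, rests on the smallest p that 100000 permutations can give. Leaving out the 2 libraries with the most extreme slopes gave -0.765 for Hes1, -0.557 for Spdef and 0.701 for Dll4, and leaving out those that stood apart gave -0.903, -0.695 and 0.706. Sox9 had an r of 0.131 and Sox4 of -0.08, at adjusted permutation p of 0.6 and 0.71. An r of at least 0.5 in size was found for 7 of the 10 members and for 39.4% of all genes. With levels corrected for gene length the r was -0.768 for Hes1, -0.512 for Spdef, 0.695 for Dll4 and 0.158 for Notch1. What part the slope has in the pairing of members was not tested.

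**Figure D5:**
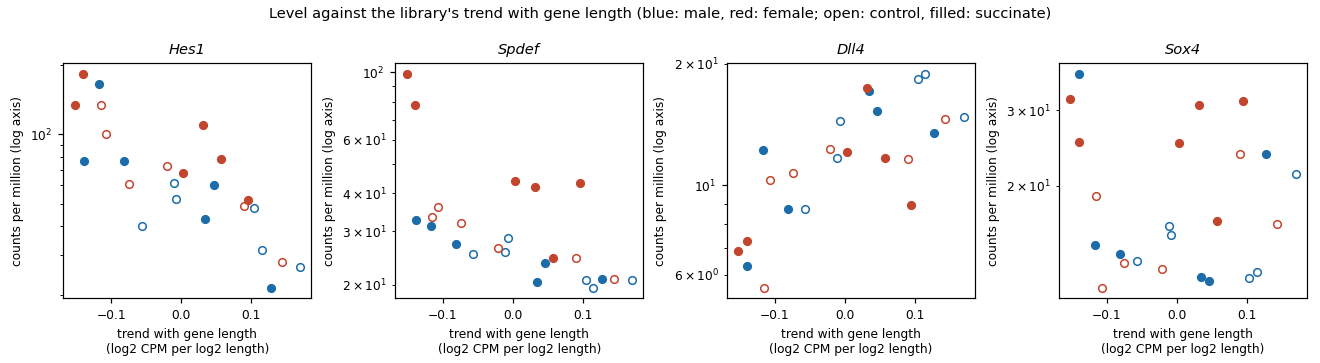
CPM of Hes1, Spdef, Dll4 and Sox4 on a log axis against the length slope, the change in log2 CPM per doubling of gene length, in each of the 24 libraries. Hes1 and Spdef are lower and Dll4 is higher at larger slopes (r of -0.81, -0.635 and 0.731), while the r of Sox4 is -0.08.

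Members were also set beside summed markers of the epithelial lineages. In bulk tissue fewer cells of a type cannot be told apart from less RNA in each cell. Spdef went with 8 Paneth markers at r = 0.82 (rho 0.804) and with 12 tuft markers at 0.778 (rho 0.518), and Atoh1 with 7 stem cell markers at 0.788 (rho 0.797). Hes1 went with 6 smooth muscle markers at 0.744 (rho 0.773), while Dll4 ran against the Paneth markers at -0.739 (rho -0.757). Their permutation p-values, adjusted over 110 relations, were 0.00037, 0.00082, 0.00037, 0.00037 and 0.0013 for r and at most 0.042 for rho. Without the 2 libraries farthest from the median marker level r was 0.764, 0.708, 0.765, 0.675 and -0.663, and without those that stood apart 0.843, 0.813, 0.708, 0.752 and -0.783. These were the relations of largest r among the 110, regardless of sign. Neurog3 ran against the enteroendocrine markers at -0.588 (adjusted permutation p = 0.013), Atoh1 at -0.569 (0.014) and Notch1 at -0.738 (0.00088). Only Hes1, at 0.625, and Spdef, at 0.295, had a positive r with them. With the goblet markers only Hes1, at 0.568, and Spdef, at 0.299, had a positive r, and Atoh1 had -0.483. The tuft sum was 57.4 to 85.6 CPM in the female controls and 149 to 477 CPM in the female succinate libraries, the group in which Spdef, Sox4 and Gfi1b had their highest female values, and the smooth muscle sum reached 7650 CPM in the library with the highest Hes1 value. The part of these markers in the members' differences was not tested.

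The genes most like each member over the 24 libraries were found by Pearson r. For Spdef they were the alpha-defensin pseudogene Defa-ps1 (0.948) and the Paneth cell defensins Defa31 (0.94) and Defa3 (0.938). These are near-identical copies among which reads may be split. For Hes1 they were Ptpmt1 (0.94), Ctnnbip1 (0.92) and Elf3 (0.916), and for Dll1 Gucy2c (0.936), Usp12 (0.933) and Snx25 (0.932). Dll4 was closest to Tor1aip1 (0.912), Kifc3 (0.897) and Txnip (0.887), and Notch1 to Sh3pxd2b (0.874), Ppfibp1 (0.865) and Arhgef6 (0.864). Atoh1 was closest to Acsm3 (0.907), Mtpn (0.901) and Twf1 (0.898), Gfi1 to Tm9sf3 (0.899), Rell1 (0.895) and Dcbld1 (0.893), and Neurog3 to Pqlc3 (0.899), Capn7 (0.87) and Pnpt1 (0.858). Sox9 was closest to Cracr2a (0.866), Rap1gap (0.844) and Prdm16 (0.835), and Sox4 to Iffo2 (0.844), Phf21b (0.842) and Supv3l1 (0.836). These values describe 24 libraries that share their depth and length trends, and no member was among the 3 closest genes of another.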

How the data were processed

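Gene counts and FPKM of 24 libraries were used as deposited. According to the study's methods, the authors trimmed poly(A)-selected, stranded paired-end reads with Cutadapt, aligned them with HISAT2 and computed FPKM with StringTie and ballgown. The submitters' notes name FastQC, StringTie and GRCm39. The program behind the deposited counts, and its strand setting, are not given in the sources used here. The deposited FPKM were scaled to the fragments of the whole library, 18S RNA included.

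Counts were tested with edgeR 4.0.16 (quasi-likelihood, TMM) in R 4.3.3 on genes that reached 10 counts in 3 or more libraries of a comparison, with Benjamini-Hochberg adjustment over all genes and a threshold of 0.05. The study used DESeq2 with a threshold of 2-fold as well. Alternatives were DESeq2 1.42.0, its size factors, no filter, a replicate block, a gene length offset, limma 3.58.1 on log2(FPKM + 0.1), voom with sample quality weights, 1 fit of all libraries and leaving out libraries. Dropping the libraries that stood apart was added after seeing the data. CPM are on TMM-scaled totals unless stated otherwise, and gene lengths for the slope came from counts over FPKM. Correlations used 100000 two-sided permutations. The permutations treat the libraries as exchangeable and take no account of the groups. The pipeline was tested on simulated data. Intervals are 95% and cover counting and replicate error only.

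The members and lists were chosen with earlier results of these data known. By rule the 10 members are described over all comparisons, from the pathway lists the genes called over all 24 mice are named, at most 3 in each direction, and for each member the 3 genes of highest r, without predicted genes. Spen, Numb, Maml1, Ep300 and Creb3l1, called in control males, fall outside this rule and were named after their values were seen. Lists covered Notch components, secretory transcription factors, and goblet, tuft, Paneth, enteroendocrine, stem, enterocyte, proliferation, endothelial, smooth muscle, heart and B lymphocyte markers.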

Additional observations from a re-analysis of the deposited data

How the results depend on the processing

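The count of members called, 0 with edgeR in each of the 10 comparisons, changed under few settings. In control males DESeq2 and voom with sample quality weights each gave 2 (Spdef and Dll4), beside 15.7% and 21.2% of all genes. Voom gave 3 in control females (Sox9, Sox4 and Notch1), 1 in wild type males after succinate (Dll1) and 2 over all 24 mice (Hes1 and Spdef). Beside these stood 20.7%, 21.8% and 12.7% of all genes. Leaving out 1 library gave 0 to 1 in control females, 0 to 1 in wild type males after succinate, 0 to 3 in wild type females after succinate and 0 in the other comparisons. The fits with such calls called 15%, 14.6% and 3.23% of all genes. DESeq2's size factors, no filter, the gene length offset, limma on FPKM, 1 fit of all libraries, a 2-fold threshold as well and dropping the libraries that stood apart gave 0. Of the differences called under some setting, 3 changed sign under another: Spdef in control males (-0.40 with edgeR, 0.04 with limma on FPKM), and in wild type males after succinate Dll1 (-0.25, called by voom at -0.46, 0.12 with limma on FPKM) and Hes1 (0.77, called at 1.19 without replicate 1 of the succinate group, -0.07 without replicate 2). Counts over all genes moved far more: in control males from 813 to 4066 with voom, 1 with all libraries in 1 fit and 2 without replicate 3 of the Ptk6-/- group, in control females from 3 to 3949 with voom and 2814 without replicate 3 of the Ptk6-/- group, in wild type males after succinate from 0 to 50 with DESeq2, 4188 with voom and 2706 without replicate 1 of the succinate group, in Ptk6-/- males from 0 to 39 with DESeq2, in wild type females from 0 to 262 with DESeq2 and 598 without replicate 3 of the succinate group, in Ptk6-/- females from 17 to 439 with DESeq2, and over all 24 mice from 113 to 2761 with voom and 32 with limma on FPKM. The cause was not tested. Same-numbered samples correlated at -0.356 to 0.345 in their deviations from the group means over all 24 mice, so the numbers do not pair them. The replicate block gave 0 members in every comparison and 5, 0, 0, 0, 4, 0 and 71 genes overall in the 7 group comparisons in the order of the report. Depth limits Neurog3 most, with 0 to 117 counts a library.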

Other observations

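Markers of the cell types in the tissue were read in the succinate comparison over all 24 mice, in which 0.521% of all genes were called with a median log2 difference of 0.00. Of 12 tuft markers 7 were called higher, with a median of 1.73, and of 10 goblet markers 2 were called higher, with a median of 0.19. None of 8 Paneth markers was called by edgeR, though 4 had an unadjusted p under 0.05 and their median was 0.62. Of 6 smooth muscle markers 1 was called higher (median 0.79). In the enteroendocrine (11 genes, median 0.01), stem (7, -0.11), enterocyte (10, -0.57), proliferation (6, -0.07), endothelial (8, 0.22), heart (8, 1.86) and B lymphocyte (6, 0.54) lists none was called by edgeR, with 3, 2, 7, 0, 2, 3 and 1 at an unadjusted p under 0.05. Of all genes 15.2% had such a p. Replicate 2 of the wild type succinate females held 17400 CPM of the heart markers, against at most 222 CPM in any other library. It also had the highest endothelial sum, 401 CPM, against at most 148 CPM elsewhere.

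In Ptk6-/- control males, where edgeR called 4.23% of all genes and 25.2% had an unadjusted p under 0.05, 1 of 9 goblet markers was called higher and 1 lower, 1 of 11 enteroendocrine markers lower and 1 of 7 stem markers higher. The 8 Paneth markers had a median log2 difference of -1 there and 5 had an unadjusted p under 0.05, but none was called by edgeR, beside the lower Spdef values of the same libraries.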
